A study of Homo sapiens and Mus musculus with 25 samples.

Results

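The H3K9me3 peaks of K562, an established human leukaemia cell line with erythroid features, form 1 deposited list called with the recombinant antibody Koide Lab 309M3B. All of its regions on chromosomes 1 to 22 were taken, which gave 16094 peaks of the 17874 in the list and of 5086948 regions on these chromosomes in the 22 peak lists used. The series calibrates ChIP-seq with semi-synthetic nucleosomes (ICeChIP-seq) and compares antibodies against methylated lysine 4 of histone H3 in K562 chromatin, with no treatment named in the labels. Its lists on these chromosomes held 1970872 H3K4me1 peaks (5 antibodies), 1449549 H3K4me2 peaks (4 antibodies), 1065561 H3K4me3 peaks (8 antibodies) and 33543 H3K27me3 peaks (Cell Signaling Technology 9733, 1 list), beside 3 corrected H3K4 lists made by the authors. The H3K9me3 list has positions only and no replicate, so its widths are descriptions of 1 library.

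H3K9me3 is laid down by the SUV39H and SETDB1 methyltransferases and read by the HP1 proteins. It is best known from constitutive heterochromatin: satellite repeats around centromeres, silenced transposons and clusters of KRAB zinc finger genes. H3K4me1 and H3K4me2 are typical of enhancers and the flanks of promoters, H3K4me3 of active promoters, and H3K27me3 of genes held silent by Polycomb.

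Sequences from the 3 kinds of place described below are given as examples, which need not be typical of their kind. The first 2 are neighbouring units of a tandem repeat inside a peak of 695 bases at chr2:93326467-93327161, in the 1 Mb window where most peaks started. They lie at chr2:93326643-93326813 and chr2:93326814-93326984 (hg38, plus strand) in intergenic sequence, and capitals mark the bases at which they differ.
Unit 1: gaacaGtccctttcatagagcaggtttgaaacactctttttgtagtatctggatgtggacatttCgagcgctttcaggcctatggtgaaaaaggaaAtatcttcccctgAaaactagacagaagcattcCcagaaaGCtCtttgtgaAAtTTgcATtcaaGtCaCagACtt
Unit 2: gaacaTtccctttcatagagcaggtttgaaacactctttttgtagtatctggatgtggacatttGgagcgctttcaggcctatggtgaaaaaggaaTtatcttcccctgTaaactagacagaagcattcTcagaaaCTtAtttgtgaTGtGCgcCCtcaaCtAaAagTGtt
The units shared 152 bases, 88.9% of their length, and none of the 17 H3K4 lists touched them. Such tandem repetition, at the length of an alpha satellite unit, was found in 6.20% of the 1 kb bins in peaks under 10 kb. The next 2 are the 250 bases before the start sites of EBF4, an early B-cell factor family gene, and LRP3, a gene of the low-density lipoprotein receptor family, where a wide peak was interrupted by a short break in unique sequence. They lie at chr20:2692530-2692779, which is intergenic, and chr19:33194080-33194329, which is in an intron of a longer LRP3 transcript (plus strand, hg38), and capitals mark CpG dinucleotides.
EBF4: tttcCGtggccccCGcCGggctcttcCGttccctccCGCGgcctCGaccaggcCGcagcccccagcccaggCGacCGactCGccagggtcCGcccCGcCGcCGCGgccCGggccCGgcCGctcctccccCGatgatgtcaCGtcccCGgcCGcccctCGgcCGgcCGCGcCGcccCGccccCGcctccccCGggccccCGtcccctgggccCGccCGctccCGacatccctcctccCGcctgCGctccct
LRP3: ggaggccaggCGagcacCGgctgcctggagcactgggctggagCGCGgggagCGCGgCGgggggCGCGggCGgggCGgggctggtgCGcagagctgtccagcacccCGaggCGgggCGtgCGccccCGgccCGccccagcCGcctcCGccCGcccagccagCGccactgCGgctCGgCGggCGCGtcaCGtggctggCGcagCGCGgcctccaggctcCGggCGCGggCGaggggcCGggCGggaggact
Each held 37 CpG dinucleotides, with a GC content of 82.8% and 83.6%. An H3K4 peak touched the EBF4 sequence in 3 of 17 lists and the LRP3 sequence in 2 of 17. For contrast, 250 intergenic bases from the centre of the widest peak, at chr7:85409475-85409724 (plus strand), held 0 CpG dinucleotides and had a GC content of 39.2%. An H3K4 peak touched them in 4 of 17 lists, more than for either CpG-rich sequence, and the H3K27me3 list covered them too.
Centre of the widest peak: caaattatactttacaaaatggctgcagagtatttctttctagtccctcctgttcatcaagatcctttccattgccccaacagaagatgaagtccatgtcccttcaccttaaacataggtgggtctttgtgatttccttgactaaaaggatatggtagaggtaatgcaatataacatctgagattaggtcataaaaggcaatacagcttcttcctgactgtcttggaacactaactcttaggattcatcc

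Most peaks were short, and most of the covered genome lay in a few very wide ones. Peaks under 10 kb numbered 11531, 71.6% of all, with a median width of 1988 bases, but they held 31.4 Mb, 1.17% of the covered length. Peaks of 10 to 100 kb numbered 1906 and held 59.6 Mb (2.22%). Peaks of 100 kb to 1 Mb numbered 1739 and held 719 Mb (26.8%). The 918 peaks over 1 Mb, 5.70% of the peaks, held 1877 Mb, 69.9% of the covered length, with a median width of 1.68 Mb on the list's own coordinates. Together the peaks covered 97% of the 2756 Mb of assembled sequence on chromosomes 1 to 22, and the 494 widest held 50% of the covered length. The smallest gap between neighbouring peaks was 801 bases. Joining peaks 1 kb or less apart left 1142 peaks of 100 kb to 1 Mb.

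**Figure D1:**
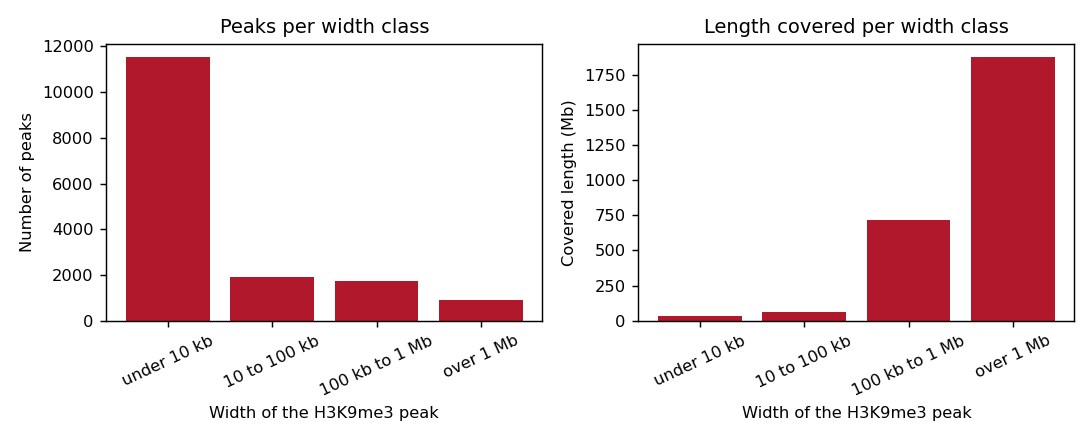
Number of H3K9me3 peaks (left) and the length they cover in Mb (right) in 4 classes of peak width, for the 1 list on chromosomes 1 to 22. The class under 10 kb has 11531 peaks and 31.4 Mb, the class over 1 Mb 918 peaks and 1877 Mb.

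The widest peaks crossed gene deserts and gene-rich sequence alike. The widest, chr7:79233891-91585309, spanned 12.4 Mb with 35 coding start sites, among them those of the semaphorins SEMA3A, SEMA3C, SEMA3D and SEMA3E, which guide axons, and of the drug transporter ABCB1, and 99.0% of it lay under H3K27me3 peaks. The next, chr5:23527662-32516050, spanned 8.99 Mb with 9 coding start sites, among them the cadherins CDH6, CDH9 and CDH10. A peak of 8.65 Mb at chr6:10265034-18910734 held 44, among them JARID2, a Polycomb cofactor. A peak of 8.36 Mb at chr16:38266102-46622981 lay mostly over gaps of the assembly, and 8.11 Mb of it is unsequenced. The fifth, chr6:35661974-43580295, spanned 7.92 Mb with 113 coding start sites, or 14.3 per Mb, among them CCND3 and CDKN1A, which act in the cell cycle. A total of 28 peaks were wider than 5 Mb.

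Because nearly every gene lay inside a peak, the list did not separate the known targets of H3K9me3 from active genes. A coding transcription start site (TSS) lay inside some H3K9me3 peak for 18792 of 19111 genes, a background of 98.3%. All 251 zinc finger genes of chromosome 19, a family well known to carry H3K9me3, were inside a peak, as were 27 of 27 housekeeping genes, 39 of 39 HOX genes and 53 of 53 clustered protocadherins. By width, 62.4% of all coding start sites lay in peaks over 1 Mb, 32.9% in peaks of 100 kb to 1 Mb, 2.35% in peaks of 10 to 100 kb and 0.691% in peaks under 10 kb, and 1.67% lay outside any peak. Of the chromosome 19 zinc finger genes, 160 lay in peaks over 1 Mb, 85 in peaks of 100 kb to 1 Mb, 6 in peaks of 10 to 100 kb and 0 in shorter ones. ZNF121 and ZNF136 shared a peak of 3.803 Mb, and their promoters (1 kb either side of the TSS) held an H3K4 peak in 17 of 17 lists. Over all promoters in peaks over 1 Mb, single lists held a peak at 78.3% to 89.0% (H3K4me1), 70.8% to 90.1% (H3K4me2) and 36.3% to 81.5% (H3K4me3). ZNF554 and ZNF555 shared the narrowest of this list, 90.7 kb. HOX and protocadherin genes all lay in peaks over 1 Mb, with the HOXA genes in 1 of 1.49 Mb and the protocadherins in 1 of 1.52 Mb.

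Genes of the same tissue differed widely in the width of the peak around them. In the erythroid list 18 of 26 genes lay in peaks over 1 Mb, led by UROD, a haem synthesis enzyme (5.87 Mb, H3K4 peaks in 17 of 17 lists), and LMO2, a transcription cofactor of blood progenitors (5.38 Mb, 16 of 17 lists). The globin genes HBA1 and HBA2 lay outside any peak, and their promoters held an H3K4 peak in 16 and 4 of 17 lists. How reads were placed between these 2 genes was not tested, so neither value is read as a difference in the marks. The neighbouring embryonic globin HBZ lay in a peak of 122 kb, with an H3K4 peak in 13 of 17 lists, and the blood group gene RHD in 1 of 26.1 kb, with 0 of 17. Among genes of H3K9 methylation, TRIM28, the corepressor that recruits SETDB1, and the housekeeping gene CHMP2A shared a peak of 46.1 kb near the end of chromosome 19, with H3K4 peaks in 12 and 17 of 17 lists. The H3K9 demethylase gene KDM4A lay in the same 5.87 Mb peak as UROD, with 17 of 17. Liver and neural genes, which K562 cells are not known for, lay in peaks of 100 kb or more in 20 of 20 and 20 of 20 cases, which is near the 95.3% of all coding genes. Of the 27 housekeeping genes, 15 lay in peaks over 1 Mb and 10 in peaks of 100 kb to 1 Mb, and 2 in narrower ones.

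Olfactory receptor genes, most of which are silent outside the nose and lie in clusters, were spread over all classes. Of 414, 14 lay in peaks under 10 kb, 18 in peaks of 10 to 100 kb, 149 in peaks of 100 kb to 1 Mb, 223 in peaks over 1 Mb and 10 outside any. That is 3.38% in peaks under 10 kb, beside 0.691% of all coding genes, and the difference was not tested. OR1D5 lay in a peak of 1793 bases and OR4N4 in 1 of 2197 bases, and OR1M1 and OR7D2 in the 3.803 Mb peak of chromosome 19. Of 69 replication-dependent histone genes, 53 lay in peaks over 1 Mb and 1, H4C14, outside any peak.

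The next comparison asked how much of each class lay under the H3K4 and H3K27me3 lists. Peaks under 10 kb were almost free of H3K4 peaks, and H3K27me3 peaks covered 11.7% of their bases. Of their bases, H3K4me1 lists covered 0.768% (Thermo Fisher 710795), 0.939% (Abcam ab8895), 1.00% (EpiGentek A-4031-050), 1.13% (Cell Signaling Technologies 5326 BF) and 1.28% (Active Motif 39635). The same lists covered 26.9%, 41.5%, 36.4%, 42.9% and 62.2% of the peaks over 1 Mb. All 5 lists were lower in the short peaks, and the 2 sets of values did not overlap. Over all assembled sequence these lists covered 25.8% to 57.8%. H3K4me2 lists covered 0.844% (Abcam ab7766), 1.35% (Cell Signaling Technologies 9725), 0.252% (EMD Millipore 05-1338) and 0.495% (Thermo Fisher 710796) of the short peaks. In the peaks over 1 Mb they covered 38.7%, 56.7%, 3.91% and 19.9%, again without overlap, beside 3.89% to 53.7% of all assembled sequence. H3K4me3 lists covered 0.0295% to 0.809% (median 0.0771%, 8 lists) of the short peaks and 0.664% to 28.8% (median 1.079%) of the peaks over 1 Mb, and here the ranges overlapped, with Abcam ab8580 the highest in both classes. Within each of the 8 lists, which covered 0.669% to 26.8% of all assembled sequence, the short peaks were lower.

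On the log2 scale, the share in peaks under 10 kb divided by the share in peaks over 1 Mb averaged -5.33 ± 0.20 over the 5 H3K4me1 antibodies (SD), -5.05 ± 0.73 over the 4 of H3K4me2 and -4.08 ± 0.59 over the 8 of H3K4me3. These correspond to shares 0.0249, 0.0302 and 0.0591 times as large. All 17 lists were lower (mean -4.67, two-sided sign-flip permutation p = 3e-05, adjusted p = 0.00018 over 12 tests; 1e-05 is the smallest p that 100000 resamples can give). The 8 H3K4me3 lists passed on their own (exact permutation p = 0.00781, adjusted p = 0.0234). The 5 H3K4me1 and 4 H3K4me2 lists cannot go below an exact p of 0.0625 and 0.125. By chromosome, the median log2 ratio over the lists of a mark was below 0 on 22 of 22 chromosomes for each of the 3 marks.

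In peaks of 10 to 100 kb the H3K4 shares were 0.507 (H3K4me1), 0.529 (H3K4me2) and 0.696 (H3K4me3) times those in peaks over 1 Mb, as geometric means over antibodies. H3K4me1 covered 21.0% ± 4.91 of these peaks (SD, n = 5), H3K4me2 14.8% ± 11.5 (n = 4) and H3K4me3 3.08% ± 5.45 (n = 8; median 0.812%). The log2 ratio was -0.98 ± 0.11 for H3K4me1, -0.92 ± 0.28 for H3K4me2 and -0.52 ± 0.16 for H3K4me3. It was below 0 in 17 of 17 lists (permutation p = 3e-05, adjusted p = 0.00018) and in 8 of 8 H3K4me3 lists (exact permutation p = 0.00781, adjusted p = 0.0234). In single-copy bins alone, described below, the H3K4me3 ratio was -0.02 with 3 of 8 lists lower (exact permutation adjusted p = 0.886), so that call ended, while H3K4me1 stood at -0.42. Over the 17 lists the single-copy ratio was -0.22 with 12 of 17 lists lower (permutation adjusted p = 0.0181), beside -0.75 with 17 of 17 over all bases.

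Between peaks of 100 kb to 1 Mb and peaks over 1 Mb the shares were close, and H3K4me3 was the higher in the narrower class. H3K4me1 covered 40.5% ± 10.6 and 42.0% ± 12.9 of the bases (SD, n = 5), with a log2 ratio of -0.04 ± 0.06 and 3 of 5 lists lower (exact permutation adjusted p = 0.273). H3K4me2 covered 28.5% ± 22.0 and 29.8% ± 22.9 (n = 4), with a log2 ratio of -0.02 ± 0.14. The H3K4me3 log2 ratio was 0.26 ± 0.17 (n = 8; exact permutation p = 0.0156, adjusted p = 0.0375), with 7 of 8 lists higher and Abcam ab8580 lower at -0.08. The Abcam ab8580 list held 718656 peaks, beside 13128 to 230275 in the other 7 lists of this target. The median list was higher in the narrower class on 20 of 22 chromosomes, with chromosomes 3 and 22 the exceptions. The H3K4me3 call ended when any 1 of the 7 other antibodies was left out (0.24 to 0.29, adjusted p = 0.0750 in each exact test), and held without Abcam ab8580 (0.31).

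H3K27me3 has 1 list and no test, and its share rose with each wider class, whereas that of H3K4me3 was higher at 100 kb to 1 Mb than over 1 Mb. H3K27me3 peaks covered 11.7% of the bases of peaks under 10 kb, 37.2% of those of 10 to 100 kb, 66.7% of those of 100 kb to 1 Mb and 73.4% of those over 1 Mb, beside 4.80% of the uncovered sequence. The share was lower in peaks under 10 kb and in those of 10 to 100 kb than in peaks over 1 Mb on 22 of 22 chromosomes, and in peaks of 100 kb to 1 Mb on 17. The authors' corrected lists gave log2 ratios of -5.57 (H3K4me1), -5.47 (H3K4me2) and -3.92 (H3K4me3) for the peaks under 10 kb, beside -5.47 in Abcam ab8895, -5.52 in Abcam ab7766 and -3.72 in Abcam ab12209, which are among the libraries they derive from. Of the bases of every single H3K4 list, 99.8% or more lay inside H3K9me3 peaks, which covered 97% of all assembled sequence. Of the bins in the uncovered sequence, 83.8% were repeated, as defined below. With that background, the high share does not show that the marks occur together.

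**Figure D2:**
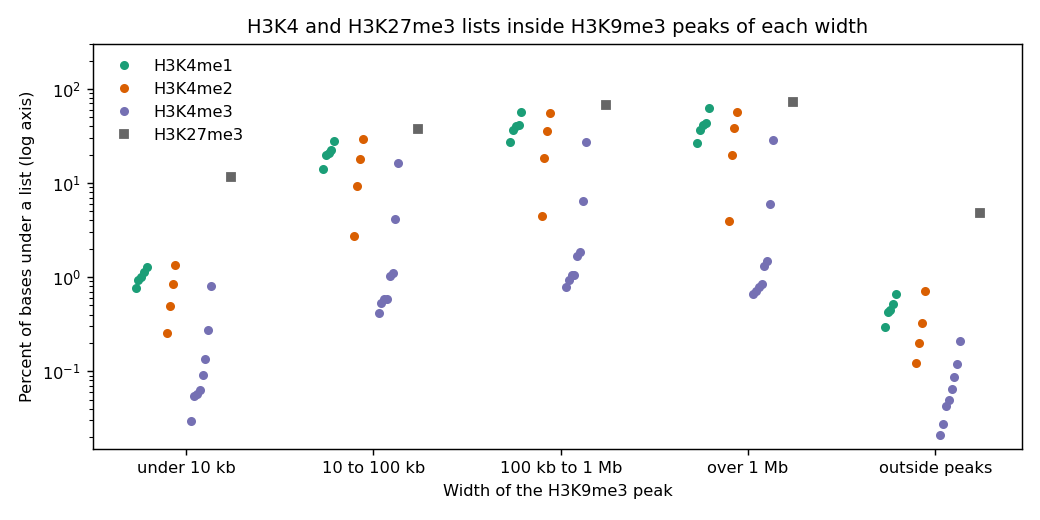
Percent of bases (log axis) under each H3K4 list (circles, 1 per antibody) and the H3K27me3 list (squares) in H3K9me3 peaks of 4 width classes and outside peaks. Every list is lower in peaks under 10 kb than in peaks over 1 Mb, from 41.5% to 0.939% for Abcam ab8895.

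The log2 ratios of the shorter classes differed between some of the targets. The log2 ratio of H3K4me1 was below that of H3K4me3 by 1.24 in peaks under 10 kb (exact permutation p = 0.00311, adjusted p = 0.0140 over 9 tests), by 0.46 in peaks of 10 to 100 kb (exact permutation p = 0.00155, adjusted p = 0.0140) and by 0.30 in peaks of 100 kb to 1 Mb (exact permutation p = 0.00932, adjusted p = 0.0280). The last of these missed the threshold without Active Motif 39635 (-0.28, exact permutation adjusted p = 0.0509). H3K4me2 was below H3K4me3 by 0.39 in peaks of 10 to 100 kb (exact permutation p = 0.0202, adjusted p = 0.0455). That call was lost when any 1 of 8 of the 12 antibodies was left out (exact permutation adjusted p = 0.0682 to 0.131), and held only without EMD Millipore 05-1338, EMD Millipore 07-473, Abcam ab8580 or EpiGentek A-4033-050. In the other 2 classes that difference missed the threshold (-0.97, adjusted p = 0.0667, and -0.28, adjusted p = 0.0509, exact permutation tests). H3K4me1 and H3K4me2 did not differ beyond the spread in any class (exact permutation adjusted p = 0.794 in each). Within the libraries of 8 amplification cycles no difference passed, with -0.95, -0.38 and -0.23 for H3K4me1 against H3K4me3 in the 3 classes (exact permutation adjusted p = 0.0714, 0.0714 and 0.0857). The targets also differed in how much sequence their lists covered. The H3K4me1 lists covered 25.8% to 57.8% of the assembled sequence, and the H3K4me3 lists other than Abcam ab8580 covered 0.669% to 5.89%. Abcam ab8580, at 26.8%, had -5.15 in peaks under 10 kb. The H3K4me2 list of EMD Millipore 05-1338, at 3.89%, had -3.95. The part of coverage in the differences between targets was not tested.

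Repeated sequence moved with these differences. A bin of 1 kb was called repeated when the 50-base sequence at its centre occurred more than once in hg38. Repeated bins made up 83.9% of the peaks under 10 kb, 36.2% of those of 10 to 100 kb, 7.08% of those of 100 kb to 1 Mb and 5.17% of those over 1 Mb, beside 83.8% of the uncovered sequence and 9.58% of all bins. Bins with over 10 copies made up 38.3% of the shortest class and 2.78% of the widest. Tandem repetition at the length of an alpha satellite unit was found in 6.20% of the bins of the shortest class, 8.67% of uncovered bins and 0.0109% of the bins of the widest class. In the shortest class, 96.1% of bins held no peak of any of the 17 H3K4 lists, beside 20.6% in the widest.

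In single-copy bins alone the short peaks were still the poorest in H3K4 peaks, by less. The log2 ratio of peaks under 10 kb to peaks over 1 Mb was -3.19 ± 0.23 over the 5 H3K4me1 lists (SD), -3.0 ± 0.57 over the 4 of H3K4me2 and -2.14 ± 0.45 over the 8 of H3K4me3 (exact permutation adjusted p = 0.0313), and 17 of 17 lists were lower. H3K4me1 covered 4.52% of these 5061 bins, and H3K27me3 14.4%. The ratios beside -5.33, -5.05 and -4.08 over all bases are nearer to 0 for each mark. The part of read placement in repeated sequence was not tested.

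Gene density was highest in the peaks of 100 kb to 1 Mb. They held 8.78 coding start sites per Mb (6287 genes), beside 6.38 (11924 genes) in peaks over 1 Mb, 7.70 (449) in peaks of 10 to 100 kb, 4.21 (132) in peaks under 10 kb and 3.85 (319) in uncovered sequence. The density was higher in peaks of 100 kb to 1 Mb than in wider ones on 20 of 22 chromosomes and lower in peaks under 10 kb on 18 of 22. Start sites of long non-coding RNAs were densest in peaks of 10 to 100 kb, at 11.0 per Mb, beside 6.19 in peaks over 1 Mb. GC content was 41.2%, 44%, 42.2% and 40.4% from the shortest to the widest class.

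Promoters inside short peaks seldom held an H3K4 peak. H3K4me3 peaks lay at 5.30% ± 2.40 of the 132 promoters in peaks under 10 kb (SD over 8 lists, 1.52% to 9.09%). Repeated bins made up 83.9% of that class, and the part of read placement in these promoter values was not tested. In peaks over 1 Mb, H3K4me3 peaks lay at 58.3% ± 14.8 of promoters (36.3% to 81.5%), and the 2 ranges did not overlap. In peaks of 10 to 100 kb the share was 33.7% ± 10.2, in peaks of 100 kb to 1 Mb 57.3% ± 14.1 and at uncovered promoters 2.59% ± 1.07. Peaks of 100 kb or more held 95.3% of all coding start sites, so the shares in these wide peaks are close to that over all genes. H3K27me3 peaks lay at 28.8%, 40.8%, 67.4% and 79.4% of promoters from the shortest to the widest class and at 16.9% of uncovered ones. Counted by peak, 618 of the 11531 peaks under 10 kb (5.36%) touched an H3K4 peak of any list and 126 held a coding TSS. These counts by peak depend on width, since a wider peak can touch more, and are not compared between classes.

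Among the genes in short peaks or outside any peak were members of duplicated gene families, chosen here after their values were seen, so that their counts are a description. Of all coding start sites, 2.36% lay in a peak under 10 kb or outside any, and 3.92% had a repeated TSS bin. Start sites in a peak under 10 kb or outside any peak made up 23 of 29 GOLGA6 and GOLGA8 genes (golgins of chromosome 15), 14 of 20 NPIP genes (chromosome 16), 9 of 11 TBC1D3 genes (chromosome 17), 20 of 22 FAM90A genes, 13 of 26 USP17L genes (deubiquitinases), 11 of 19 SPDYE genes (cell cycle kinase activators), 11 of 22 PRAMEF genes and 16 of 40 beta-defensin (DEFB) genes. The TSS bin was repeated for 25 of the 29 golgins, 18 of the 20 NPIP genes, 11 of the 11 TBC1D3 genes, 17 of the 22 FAM90A genes, 23 of the 26 USP17L genes, 13 of the 19 SPDYE genes, 15 of the 22 PRAMEF genes and 14 of the 40 beta-defensin genes. Of 14 NBPF genes, a family amplified in primates, 7 were in a short peak or outside any and the other 7 in peaks of 10 to 100 kb, with 0 in wider ones, and the TSS bin was repeated for 9 of the 14. Of 13 TAF11L and 7 PPIAL4 genes, 8 and 6 were in a short peak or outside any, with a repeated TSS bin in 8 and 4. Calls at genes with repeated bins are uncertain, since reads could be split among the copies.

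Along the chromosomes, the peaks broke up in a small part of the genome. Of 2721 full windows of 1 Mb, 139 (5.11%) had over 20 peak starts and held 9659 of 14017 starts, 68.9%. Repeated bins made up 60.1% of these windows, and 75 of them were over 50% repeated. The 957 windows with 0 starts were 4.93% repeated. The window with most starts, chr2:93000001-94000000, had 185 peaks with a median width of 1700 bases and 0 coding start sites, and 98.8% of its bins held no H3K4 peak. Next came chr12:36000001-37000000 with 176, chr9:44000001-45000000 with 157 and chr11:52000001-53000000 with 149, likewise without coding start sites, and these 4 lie near the centromeres of their chromosomes. The fifth, chr2:87000001-88000000, had 146 starts and 3 coding start sites, of PLGLB1, PLGLB2 and RGPD2, which are members of duplicated families, and 78.9% of its bins were repeated.

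A milder break-up was seen in windows that were on average richer in genes, more often near chromosome ends and more repeated than windows with 0 starts. Repeated bins made up 16.3% of windows with 6 to 20 starts, beside 4.93% of those with 0 starts. Windows with 6 to 20 starts had 12.9 coding start sites per Mb, beside 6.13 in windows with 0 starts, 6.34 with 1 to 2, 8.36 with 3 to 5 and 7.06 with over 20. Of these 159 windows, 55 (34.6%) lay within 5 Mb of a chromosome end, beside 2.61% of the windows with 0 starts. Their H3K4me1 share of 43.1% ± 8.84 (SD, n = 5) was within the spread of that in windows with 0 starts, 43.3% ± 13.9, whereas windows with over 20 starts had 19.5% ± 4.201. The 137 windows with 6 or more starts and under 20% repeated bins had 14.0 coding start sites per Mb and a GC content of 46.1%. They were 11.2% repeated, and 42.3% of them lay near an end. The 81 windows with 6 or more starts and over 50% repeated bins had 2.50 coding start sites per Mb and a GC content of 39.8%, and 92.5% of their bins had no H3K4 peak.

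Among gene-rich windows under 20% repeated, chr1:1000001-2000000 had 23 starts and 41 coding start sites, among them ISG15 and DVL1, 14.6% of its bins were repeated and 96.4% of it was covered. The window chr16:2000001-3000000, 18.4% repeated, had 21 starts and 42 coding start sites, among them TSC2 and PKD1, the genes of tuberous sclerosis and polycystic kidney disease. The first 1 Mb of chromosome 16, which holds the alpha-globin cluster, had 16 starts and 48 coding start sites and was 9.70% repeated. The first 1 Mb of chromosome 11, with HRAS and the IFITM genes, had 17 starts and 45 coding start sites and was 18.9% repeated. The window chr6:32000001-33000000 of the class II major histocompatibility complex, 32 Mb from the nearer end, had 19 starts and 35 coding start sites and was 10% repeated. All 5 lay above the 8.96% of repeated bins over all windows and the 4.93% in windows with 0 starts. Coverage of these 5 windows ran from 88.1% on chromosome 11 to 97.2% on chromosome 16. The window chr17:3000001-4000000, 16.4% repeated, had 19 starts and 29 coding start sites, and 49.2% of its bins had no H3K4 peak. Windows with few genes broke up too. Among them were chr8:1000001-2000000 with 23 starts and 4 coding start sites (9.5% repeated), and chr2:107000001-108000000 with 20 and 2 (9.8% repeated). The 10 to 100 kb class as a whole had 32.3% of its bins within 5 Mb of a chromosome end, beside 7.00% of all bins. The share was 5.88% in the class under 10 kb, 15.6% in that of 100 kb to 1 Mb and 3.03% in that over 1 Mb.

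**Figure D3:**
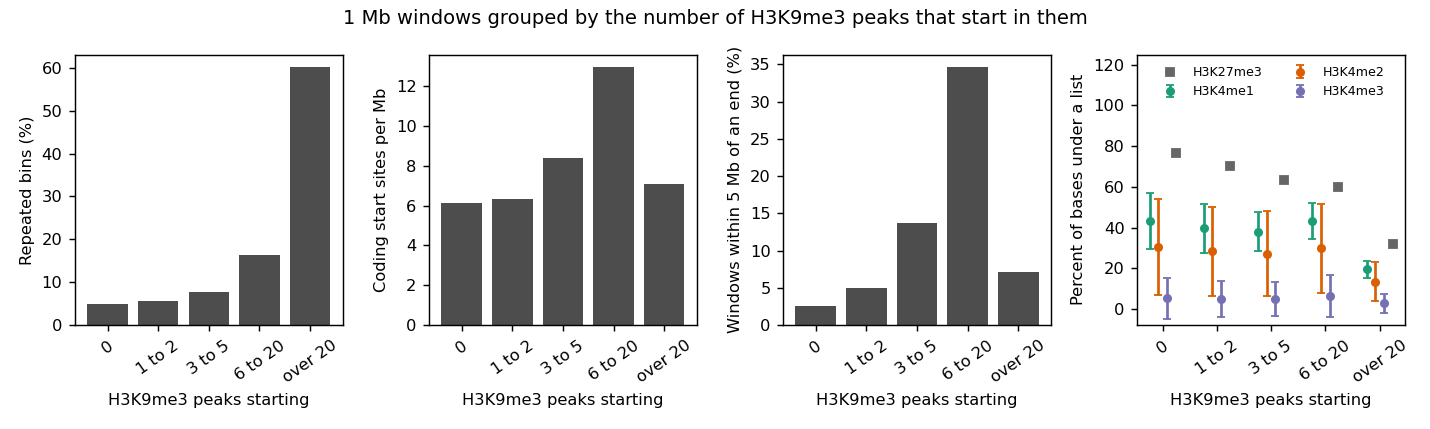
Windows of 1 Mb grouped by the number of H3K9me3 peaks that start in them (x axis), with the percent of repeated bins, coding start sites per Mb, the percent of windows within 5 Mb of a chromosome end, and the percent of bases under H3K4 lists (mean and SD over antibodies) and the H3K27me3 list. Repeats rise to 60.1% in windows of over 20 starts, and coding start sites are densest, at 12.9 per Mb, in windows of 6 to 20.

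Chromosomes differed in the same way. Peaks per Mb ran from 2.11 on chromosome 13, 2.24 on chromosome 3 and 2.27 on chromosome 6 to 11.5 on chromosome 16, 12.5 on chromosome 9 and 13.0 on chromosome 22. Coverage of the assembled sequence ran from 87.5% on chromosome 9 to 99.2% on chromosome 6. As a description over the 22 chromosomes of this 1 library, Spearman's rho of peaks per Mb was 0.93 with the percent of repeated bins, 0.72 with GC content and 0.51 with coding start sites per Mb. Over the 2721 windows it was 0.47, 0.17 and 0.09. Chromosome 19, with 25.3 coding start sites per Mb the richest in genes, had 7.72 peaks per Mb, and chromosome 18, with 3.32, had 9.78.

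**Figure D4:**
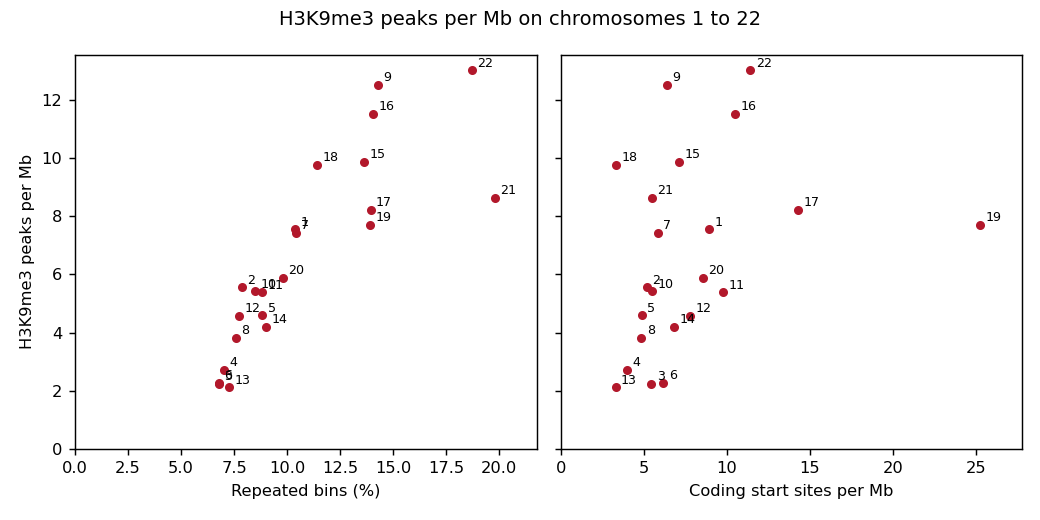
H3K9me3 peaks per Mb on chromosomes 1 to 22 (numbered points) against the percent of repeated bins (left) and coding start sites per Mb (right). Chromosome 13 is lowest with 2.11 peaks per Mb and chromosome 22 highest with 13.0.

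Chromosome 9 also held the main stretch of unique sequence without H3K9me3 peaks. Of 13399 single-copy bins outside any peak, 8311 (62.0%) were on chromosome 9, and 8276 of these held no H3K4 peak of any list. Windows under 20% repeated and under 50% covered numbered 9, all between chr9:21000001 and chr9:32000000. In 8 of the 9, 100% of bins had no H3K4 peak, and in the other 99.0%. H3K27me3 covered 1.91% to 44.4% of them. The 29 coding start sites of these windows are those of 13 interferon alpha genes, IFNB1, IFNE and IFNW1, of the tumour suppressors CDKN2A and CDKN2B, of MTAP and of 10 others, among them ELAVL2 and LINGO2. The TSS bin was repeated for 2 of the 13 interferon alpha genes, unlike the golgins and NPIP genes. Loss of the CDKN2A region from K562 cells is known from other work, and the copy number of this stretch was not tested.

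Breaks between neighbouring peaks were short and mostly in repeats. There were 16072, with a median of 1940 bases, and the centre was repeated in 87.8%. Of these, 9901 lay between 2 peaks under 10 kb. Breaks that parted 2 peaks of 100 kb or more numbered 1807, with a median of 1155 bases, and 455 had a single-copy centre. Of the 455, 110 (24.2%) were GC-rich (65% or more), beside 17.8% of the 1352 repeated breaks of this kind and 4.29% of all breaks. The mean GC content of the 110, 71.3%, and their 69.4 CpG per kb follow from that choice. The other 345 had 11.6 CpG per kb, beside 10.1 over all bins. The 110 included the 10 breaks at the start sites of KLHL29, AGAP1, ADRA2C, USP12, KLF5, CCDC92B, LIMD2, LRP3, RBCK1 and EBF4. H3K4 peaks touched the promoters of RBCK1, a ubiquitin ligase subunit, in 13 of 17 lists, of LIMD2 in 11, of USP12 in 9, of LRP3 in 6, of EBF4 in 4, of ADRA2C, an adrenergic receptor gene, in 2 and of CCDC92B in 0. The breaks at LRP3 and EBF4, whose sequences are printed above, were 803 and 824 bases wide and parted peaks of 447 and 884 kb, and of 249 and 129 kb. The widest breaks of this kind were 193 kb at KCNIP2 and 89.3 kb at CTBP2, both on chromosome 10 with a single-copy centre, and 106 kb on chromosome 21 at SMIM11.

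The other marks dipped at the breaks as well. In the 410 single-copy breaks of 3 kb or less without assembly gaps, the centre lay under H3K4me1 peaks in 8.73% ± 2.24 (SD, n = 5) and the positions 5 kb away in 43.7% ± 10.2, with 5 of 5 lists lower at the centre. H3K4me2 went from 30.5% ± 23.1 at 5 kb to 6.04% ± 4.76 at the centre (n = 4, 4 of 4 lists lower). H3K27me3 went from 66.7% to 18.5% in its 1 list. For H3K4me3 the means were 5.49% and 1.34%, with 5 of 8 lists lower and 3 higher at the centre. In the 1244 repeated breaks, H3K4me1 went from 35.3% ± 10.1 to 5.03% ± 1.57, and H3K4me3 was lower at the centre in 8 of 8 lists. These breaks are where 1 H3K9me3 library had no peak, so the H3K9me3 dip is set by the choice of the positions.

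**Figure D5:**
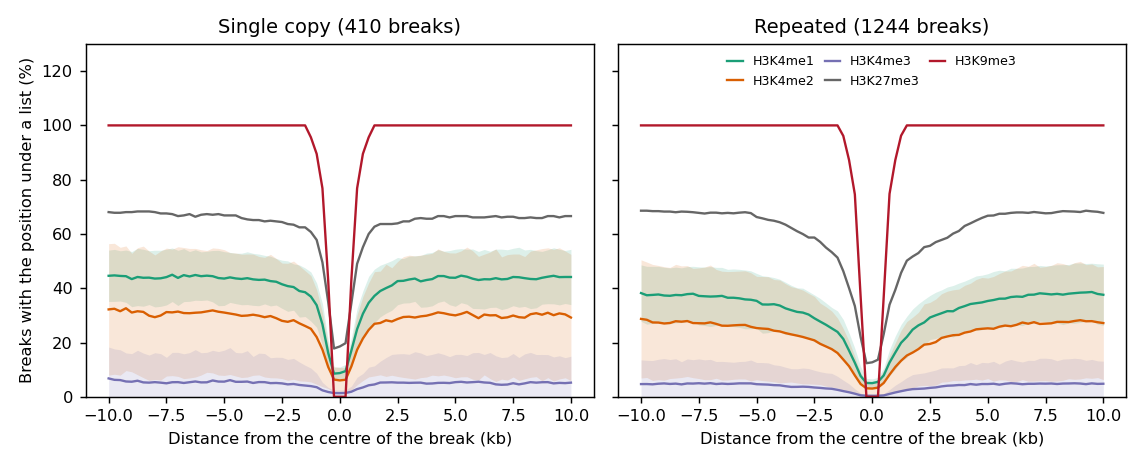
Percent of breaks in which a position is under a list, by distance in kb from the centre of the break, for 410 single-copy (left) and 1244 repeated (right) breaks between H3K9me3 peaks of 100 kb or more; lines are means over antibodies and bands 1 SD (H3K9me3 and H3K27me3 have 1 list). H3K4me1 falls from 43.7% at 5 kb to 8.73% at the centre of single-copy breaks.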

How the data were processed

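H3K9me3 peaks were described in 1 list of K562 and set beside 17 H3K4 lists, 1 H3K27me3 list and 3 corrected H3K4 lists. Reads were handled with MACS2, Bowtie2, bedtools and SAMtools on the GRCh38 (hg38) build, per the submitters' processing notes. Versions, calling settings and the rule for keeping a peak: not given in the sources used here. As deposited, the H3K9me3 and H3K27me3 lists hold positions only, without counts, so read depth is unknown and no counting interval could be given. In 17 lists the authors deposited a score for each peak whose scale is not stated, and it was used only in 1 alternative that keeps peaks at or above their list's median. No list pools antibodies except the 3 corrected ones. The 2 K562 inputs and 4 mouse samples were not analysed here.

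The H3K9me3 list was run beside the AR17 input, as were 2 H3K4me3 lists. The other 15 H3K4 lists were run beside the AR16 input. Libraries of 4 H3K4 antibodies took 12 amplification cycles and 13 took 8.

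Peaks were classed by width at 10 kb, 100 kb and 1 Mb. Coding start sites were those of the canonical transcripts of 19111 genes in GENCODE release 44. For each antibody, the log2 ratio of the share of bases under its list in a shorter class to that in peaks over 1 Mb was computed. Ratios were tested by two-sided sign-flip permutation over antibodies, exact except for 17 lists (100000 resamples), and between targets by exact permutation, each with Benjamini-Hochberg adjustment and a threshold of 0.05. The antibody is the replicate, and no separate cultures are named in the labels, so the p-values here measure only the spread between antibodies. Of 12 tests within lists 5 passed (6 unadjusted), and of 9 between targets 4 (6 unadjusted). Copy number of 50-base sequences was counted on both strands of chromosomes 1 to 22, X and Y. Tests were tried on simulated data. The tools were Python 3.11.15, NumPy 2.4.6, pandas 2.3.3, numba 0.67.0, SciPy 1.17.1 and matplotlib 3.10.9. Sequences were read from the hg38 reference.

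Named genes were the 5 widest peaks, the 5 windows with most starts, and from each gene list the 2 genes in the widest and 2 in the narrowest peaks and up to 2 outside any peak. Of these, the genes that say most are given. Members, gene lists and tests were chosen with earlier results of these data known. The break-up by repeats, the windows rich in genes or low in coverage, the breaks and the gene families were examined after seeing the data.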

Additional observations from a re-analysis of the deposited data

Results flagged for a closer look

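The H3K4me2 list of EMD Millipore 05-1338 stood apart from the other 3 of its target in peaks under 10 kb, with a log2 ratio of -3.95 beside -5.33 for the nearest. It was the only one marked among 9 groups of antibodies examined in this way. The groups reuse the same lists and are not independent, and 1 such mark could arise by chance. The list was also the highest of its target at 10 to 100 kb (-0.52) and at 100 kb to 1 Mb (0.19). Its library took 12 amplification cycles and its list covered 3.89% of the assembled sequence, beside 18.6% to 53.7% for the others. The part of these in the value was not tested.

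The log2 ratios of the shorter classes differed between some of the targets. H3K4me1 was below H3K4me3, with log2 differences of -1.24 under 10 kb, -0.46 at 10 to 100 kb and -0.30 at 100 kb to 1 Mb, and H3K4me2 was below H3K4me3 by -0.39 at 10 to 100 kb. The -0.39 missed the threshold when any 1 of 8 of the 12 antibodies was left out, and the -0.30 without Active Motif 39635. Abcam ab8580, which covered 26.8% of the assembled sequence, had log2 ratios of -5.15, -0.83 and -0.08 in the 3 classes, lower than those of the other 7 H3K4me3 lists. The part of coverage in the differences between targets was not tested.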

How the results depend on the processing

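Of 478 recomputed values, 416 kept their direction and call or moved little, 33 lost the call, 12 gained one, 13 changed direction and 4 moved by more than the limit. No paired analysis was possible because replicate numbers were given in accession order and pair no antibodies. With 1 antibody left out, log2 ratios to peaks over 1 Mb ran from -4.19 to -3.93 (H3K4me3, under 10 kb), -0.55 to -0.48 (H3K4me3, 10 to 100 kb), 0.24 to 0.31 (H3K4me3, 100 kb to 1 Mb), -0.084 to 0.017 (H3K4me2, 100 kb to 1 Mb) and 0.090 to 0.124 (17 lists, 100 kb to 1 Mb; past the threshold only without Active Motif 39635). Differences between H3K4me1 and H3K4me2 ran from -0.43 to 0.088, -0.12 to 0.071 and -0.056 to 0.044 from the shortest class up, above 0 without EMD Millipore 05-1338 in each. H3K4me1 against H3K4me3 ran from -1.40 to -1.13, -0.50 to -0.41 and -0.35 to -0.28, the last missing the threshold without Active Motif 39635. H3K4me2 against H3K4me3 ran from -1.33 to -0.81, -0.53 to -0.33 and -0.35 to -0.25, and its call at 10 to 100 kb was lost when any 1 of 8 antibodies was left out.

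In the smaller sets the exact tests have fewer antibodies, and H3K4me3 missed the threshold in all 3 classes: -4.07, -0.50 and 0.25 beside the AR16 input, -4.37, -0.60 and 0.19 at 8 cycles, and -4.32, -0.56 and 0.35 with peaks at or above the median score. Beside the AR16 input, H3K4me1 against H3K4me3 at 100 kb to 1 Mb (-0.29) and H3K4me2 against H3K4me3 at 10 to 100 kb (-0.42) missed it too. At 8 cycles, H3K4me1 against H3K4me3 (-0.95, -0.38 and -0.23) and H3K4me2 against H3K4me3 at 10 to 100 kb (-0.46) did, and H3K4me1 against H3K4me2 turned to 0.088, 0.071 and 0.044. With peaks at or above the median score, H3K4me1 and H3K4me2 at 100 kb to 1 Mb turned to 0.0051 and 0.019, and H3K4me2 against H3K4me3 at 10 to 100 kb was -0.36, no longer past the threshold.

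With peaks 1 kb or less apart joined, 1142 peaks of 100 kb to 1 Mb were left, and at that width H3K4me2 turned to 0.0080 and the 17 lists passed at 0.15. With limits at 5, 50 and 500 kb the second class held 3454 peaks with 23.1% under H3K27me3 and the widest 1507, and H3K4me2 against H3K4me3 passed in the third class (-0.33), as it did with each peak counted once (-0.31). In single-copy bins, an alternative added after seeing the data, H3K4me3 at 10 to 100 kb was -0.017 and lost its call, H3K4me2 at 100 kb to 1 Mb turned to 0.0071, the 17 lists passed there (0.13), and H3K4me2 against H3K4me3 passed under 10 kb (-0.86) and at 100 kb to 1 Mb (-0.28). The cause of these changes was not tested. Leaving out H3K4 peaks over 1 Mb, also added after seeing the data, changed 0 of 21 calls. Depth is unknown, so a place without a peak may carry the mark.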
